A study of Capra hircus with 8 samples.

Results

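The expressed ZNF genes of 8-cell goat (Capra hircus) embryos are described here. They are the genes of the deposited 8-cell messenger RNA table whose name starts with ZNF followed by a digit, that reached 1 FPKM (fragments per kilobase of transcript, scaled to library size) in at least 2 of the 4 libraries, and that are not listed among the authors' annotated lncRNAs. This rule was met by 147 of 253 ZNF genes, in a table of 22107 names of which 10303 met the same level. The members were thus chosen by their FPKM values in the same 4 libraries, without regard to group. Where a gene has a pair of values for a group, they are replicate 1 and replicate 2 in that order. All 253 names are protein-coding in the RefSeq gene table of the goat assembly ARS1.2, and none is repeated or listed as a lncRNA.

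ZNF symbols are given mostly to genes for C2H2 zinc finger proteins. In these a cysteine pair and a histidine pair hold a zinc ion and fold a short stretch that can read DNA bases. Many C2H2 proteins carry a KRAB domain, which binds the corepressor TRIM28 and through it brings the H3K9 methyltransferase SETDB1 to DNA. In the early mouse and human embryo such proteins are known for silencing retrotransposons and for keeping the methylation of imprinted genes. Other ZNF proteins lack this domain and act as activators, in ribosome assembly, on the mitotic spindle or on RNA.

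The series holds 8 libraries in 4 groups of 2, and messenger RNA values cover the 2 groups at the 8-cell stage. One group came from in vitro fertilisation (IVF). The other came from somatic cell nuclear transfer (SCNT): an egg without its own nucleus receives that of a body cell. The labels give no donor cell type, breed, genotype or number of embryos for either group, and no treatment other than IVF or SCNT. Embryos were lysed whole and copied into cDNA by Smart-seq2, a full-length method for very little RNA. Nothing says that the replicates are separate batches of embryos, so a p-value measures only the spread between these libraries, which may be technical.

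The totals behind the FPKM scale, recovered from the steps between low values, differed little between libraries. At 1 FPKM, a transcript of 1 kilobase rested on 27.5 and 30.3 reads in the IVF libraries and on 28.4 and 28.5 reads in the SCNT libraries (counting error only, since copies made by PCR cannot be told apart). The number of genes at 1 FPKM or more was 8984 and 9038 in IVF and 9883 and 11025 in SCNT. Oocyte and cleavage-embryo markers, 10 of them in the table and all 10 at the level rule, summed to 2484 and 2708 FPKM after IVF, against 3063 and 4269 FPKM after SCNT. By the test given below, 2 of these 10, KHDC3L and SEBOX, rose in SCNT (20%, background 3.02% of all genes tested) and 0 fell. Of the fibroblast markers, 15 were in the table and 11 at the level rule, and none was at 0 in every library. They summed to 138 and 127 FPKM after IVF, against 103 and 112 FPKM after SCNT. By the same test 2 of the 11, TAGLN and TIMP1, rose in SCNT (18.2%, background 3.02%) and 0 fell. DCN held most of the IVF sum. Without it, a choice made after the values were seen, the direction was the opposite. The other 14 then summed to 44.1 and 41.8 FPKM after IVF, against 69.3 and 72.4 FPKM after SCNT. Of the 11, 5 had both SCNT libraries above both IVF libraries (45.5%, against 46.9% of all genes at the level rule). Another 2 had them below (18.2%, against 17.1%). Among the 5, COL3A1, TAGLN and TIMP1 met the level rule through SCNT alone and so had to be higher there. Cumulus and granulosa markers (9 in the table, 3 at the level rule) summed to 41.9 and 51.2 and to 21.2 and 35.7 FPKM, with AMH, FSHR and INHA at 0 in all 4 libraries. The part of these cell types in the results below was not tested.

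Most expressed ZNF genes were modest in level. The mean over the 4 libraries lay under 5 FPKM for 80 of the 147, between 5 and 20 FPKM for 53 and at 20 FPKM or more for 14. Their median was 2.71 and 3.06 FPKM after IVF, against 4.58 and 5.80 FPKM after SCNT, below the median of all 10303 genes at the level rule in each library (5.65, 5.73, 7.58 and 9.34 FPKM in the same order). Summed, the members held 1409 and 1403 FPKM after IVF, against 1937 and 1981 FPKM after SCNT. These sums are 0.339% and 0.360% of all FPKM in IVF and 0.509% and 0.464% in SCNT, so both SCNT shares lay above both IVF shares.

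The level rule was met in all 4 libraries by 98 members and in both SCNT libraries but in neither IVF library by 25. Another 12 met it in both SCNT libraries and in 1 IVF library, 4 in both IVF libraries and in 1 SCNT library, and 7 in 1 library of each group. ZNF25 alone met it in both IVF libraries and in neither SCNT library. Members that entered through SCNT alone had to be higher there, so counts of direction over all 147 lean towards SCNT by construction. Over all genes at the level rule, 9.34% entered through the SCNT pair alone and 1.66% through the IVF pair alone, against 17.0% and 0.680% of the members.

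Of the 106 ZNF genes that did not meet the rule, 3 were listed at 0 in all 4 libraries and 20 reached 1 FPKM in exactly 1 library. That library was SCNT replicate 2 for 11 genes, SCNT replicate 1 for 6 and IVF replicate 1 for 3. Just inside the rule stood ZNF281 (second-highest library at 1.02 FPKM), ZNF180 (1.04 FPKM) and ZNF407 (1.05 FPKM). Just outside stood ZNF646 (0.997 FPKM), ZNF593 (0.944 FPKM) and ZNF333 (0.904 FPKM). All 3 genes just outside were at most 0.474 FPKM in IVF and reached 1.52 to 3.15 FPKM in SCNT replicate 2.

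The comparison implied by the design asks how ZNF genes of nuclear transfer embryos differ from those of fertilised embryos at this stage. In limma, 2 members rose in SCNT, ZNF576 and ZNF622, 0 fell and 145 did not pass at an adjusted p of 0.05. That is 1.36% of the members called higher, against a background of 3.02% of all genes tested, and 0% called lower against 0.844%. At an unadjusted p under 0.05 there were 51 members (34.7%), near the 31.1% of all genes tested. Log2 differences are SCNT minus IVF on the log2(FPKM + 1) scale, which understates the change of low genes. Embryos were lysed whole, so a lower level in every cell and fewer cells that hold the RNA cannot be told apart.

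Without a test, both SCNT libraries exceeded both IVF libraries in 79 members (53.7%, background 46.9%) and below both in 17 (11.6%, background 17.1%), and the groups overlapped in 51. Among the 98 members at 1 FPKM or more in all 4 libraries, 45 lay above (45.9%, background 42.2% of genes at that level), 15 below (15.3%, background 18.3%) and 38 overlapped. In that subset 1 member was called higher, ZNF622 (1.02%, background 1.99%), and 0 lower (background 0.425%). In that subset, which the level rule cannot tilt through one group alone, the members' shares lay near the background.

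The median log2 difference was 0.54 over the members and 0.39 over all genes tested, with the members that entered through SCNT alone included. Among genes at 1 FPKM or more in all 4 libraries, where the level rule adds no such tilt, it was 0.33 over the 98 members and 0.28 over all. Over the 147 members it was 0.04, against −0.10 over all genes, after median centring, which shifts every gene alike, and 0.06 against −0.01 after quantile normalization. As deposited, 105 members had a positive and 42 a negative difference; after median centring 76 and 71 did, and after quantile normalization 77 and 70. Of the 79 members with both SCNT values above both IVF values, 7 turned negative after median centring and 7 after quantile normalization. None of the 17 in the other direction turned positive under either scaling.

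**Figure D1:**
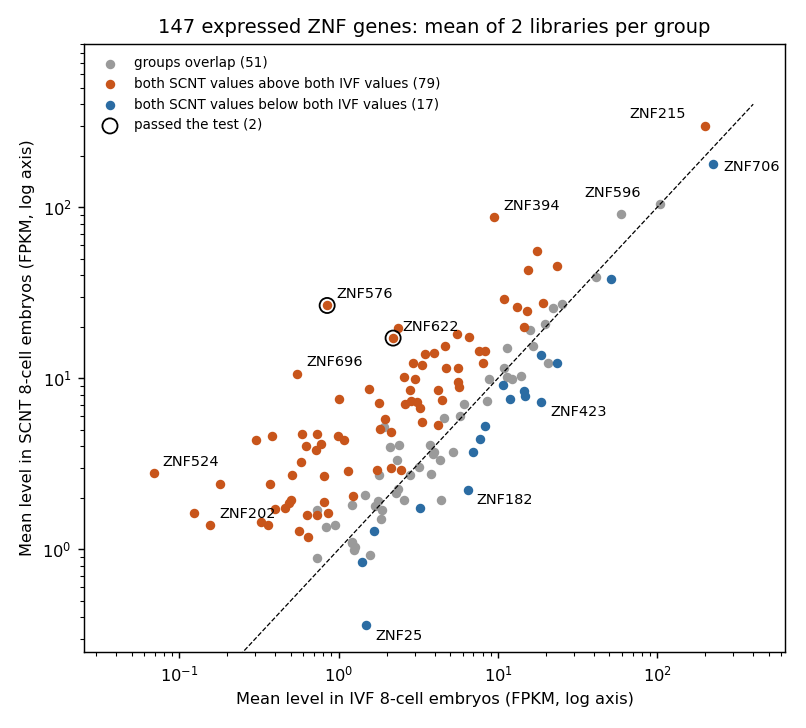
Mean level of each of the 147 expressed ZNF genes in IVF (x axis) and SCNT (y axis) 8-cell embryos, in FPKM on log axes, each the mean of 2 libraries; the dashed line marks equal levels. Orange marks the 79 genes with both SCNT values above both IVF values, blue the 17 with both below, grey the 51 that overlap and rings the 2 that passed the test. As deposited, the 10303 genes at the level rule lean to SCNT by a median log2 difference of 0.39, and 20289 genes without that filter by 0.13.

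ZNF576 had the largest difference. It stood at 14.2 and 39.0 FPKM after SCNT, against 1.26 and 0.434 FPKM after IVF. The groups were far apart, with the lower SCNT value above 10 FPKM and the IVF values near 1 FPKM or under it. Its mean was 26.6 ± 17.5 against 0.846 ± 0.582 FPKM (SD, n = 2 each), 31.5 times as high, and its log2 difference 3.78 ± 0.58 (SE; adjusted p = 0.0263 in limma). It passed also after median centring (0.0113) and quantile normalization (0.0244), with adjusted p-values from 0.0016 to 0.242 over the alternatives. It did not pass without SCNT replicate 2 (0.0735) or without a filter on level (0.242).

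ZNF622 is the human relative of yeast Rei1, which helps to finish the large ribosomal subunit in the cytoplasm. It stood at 11.2 and 23.1 FPKM after SCNT, against 2.13 and 2.26 FPKM after IVF. The IVF values were nearly equal and both SCNT values lay well above them. Its mean was 17.2 ± 8.48 against 2.19 ± 0.0930 FPKM (SD, n = 2 each), and its log2 difference 2.42 ± 0.50 (SE; adjusted p = 0.0445). The call held in 7 of 14 settings, the reported one included. It was lost after median centring (0.0519), after quantile normalization (0.0673), with no filter on level (0.242), with a filter of 5 FPKM, and without SCNT replicate 2 (0.0970), IVF replicate 1 (0.168) or IVF replicate 2 (0.119). The lowest adjusted p was 0.00787. Another ZNF gene of ribosome assembly, ZNF593, relative of yeast Bud20, stood just under the level rule, at 0.944 and 3.15 FPKM after SCNT, against 0.195 and 0.265 FPKM after IVF, and was not tested.

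The next members by difference did not pass, and 8 of them were named by rule as the most positive among members whose groups do not overlap. ZNF394, which pairs a SCAN with a KRAB domain in human, stood at 39.9 and 135 FPKM after SCNT, against 15.8 and 3.13 FPKM after IVF. Its log2 difference of 3.16 ± 0.76 (SE) had an adjusted p of 0.0550, with both groups spread widely. ZNF696 stood at 4.00 and 17.2 FPKM after SCNT, against 0.339 and 0.761 FPKM after IVF (log2 difference 2.64, adjusted p = 0.0527). ZNF691 stood at 9.43 and 30 FPKM after SCNT, against 1.04 and 3.67 FPKM after IVF (2.54, 0.0600). In all 3, SCNT replicate 2 was over 3 times as high as replicate 1. ZNF696 met the level rule through SCNT alone and so had to be higher there.

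Lower in level, ZNF641 stood at 4.58 and 10.5 FPKM after SCNT, against 0.527 and 1.47 FPKM after IVF, a log2 difference of 2.04. ZNF574 stood at 2.15 and 6.53 against 0.406 and 0.200 FPKM (1.91), and ZNF467 at 2.16 and 7.08 against 0.166 and 0.591 FPKM (1.89). ZNF7 stood at 5.38 and 11.8 against 0.820 and 2.30 FPKM (1.88), and ZNF771 at 3.50 and 5.93 against 0.261 and 0.913 FPKM (1.85). Adjusted p-values of these 5 ran from 0.0527 for ZNF771 to 0.0682 for ZNF7. SCNT replicate 2 was again the highest library in each of the 5. In each, the lowest SCNT value exceeded the highest IVF value by a factor of over 2. Of the 5, ZNF574, ZNF467 and ZNF771 met the level rule through SCNT alone and so had to be higher there.

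In the other direction no member passed. ZNF423, a partner of EBF factors and of BMP signalling that is best known from neural and fat cell precursors in mouse, had the most negative difference. It stood at 7.91 and 6.69 FPKM after SCNT, against 21.5 and 15.8 FPKM after IVF, a log2 difference of −1.23 ± 0.44 (SE; adjusted p = 0.106). ZNF182 stood at 2.64 and 1.80 FPKM after SCNT, against 6.35 and 6.54 FPKM after IVF (−1.22, 0.107). In both genes the groups were separate, by a gap wider than the spread within either group.

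ZNF25 was low throughout, at 0.346 and 0.373 FPKM after SCNT, against 1.66 and 1.32 FPKM after IVF. It met the level rule through IVF alone and so had to be lower in SCNT. Its log2 difference was −0.87 (adjusted p = 0.112), and after median centring it passed (−1.36, 0.0421). ZNF652, which binds the corepressor CBFA2T3 in human cells, stood at 15.8 and 8.65 FPKM after SCNT, against 20.2 and 26.3 FPKM after IVF (−0.92, 0.213). ZNF639 stood at 5.36 and 2.08 against 8.41 and 5.42 FPKM (−0.81) and ZNF177 at 2.23 and 1.25 against 2.87 and 3.58 FPKM (−0.65). For ZNF639 the groups were only narrowly separate. The remaining pair, ZNF23 and ZNF382, are given with the repressors.

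**Figure D2:**
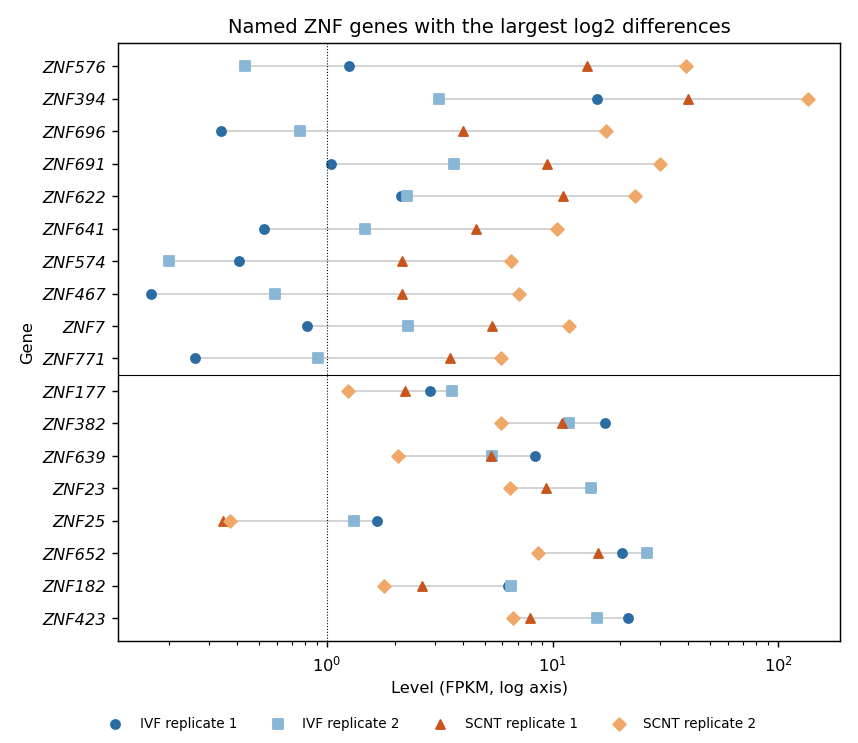
Level in each of the 4 libraries (FPKM, log axis) of the 18 members named for the largest log2 differences, ordered from the most positive (top) to the most negative; the dotted line marks 1 FPKM and the horizontal line divides positive from negative. In the upper 10 genes both SCNT values lie above both IVF values, with SCNT replicate 2 the highest; in the lower 8 they lie below, with SCNT replicate 2 the lowest in all but ZNF25.

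Members known from transcription, a list of 12 genes of which 11 met the level rule, included 0 that passed. Both SCNT libraries exceeded both IVF libraries in 8 of the 11 (72.7%, background 46.9%) and lay below them in 1 (9.09%, background 17.1%). Of the 8, ZNF202, ZNF148, ZNF281 and ZNF263 met the level rule through SCNT alone and so had to be higher there. The share of 72.7% is thus raised by the rule. ZNF410, which in human and mouse cells activates the gene of the chromatin remodeller CHD4, stood at 37.4 and 73.1 FPKM after SCNT, against 14.5 and 20.4 FPKM after IVF (log2 difference 1.55, adjusted p = 0.0777). CHD4 itself stood at 20.8 and 25.8 FPKM after SCNT, against 4.56 and 6.72 FPKM after IVF (1.89, 0.0535). Both genes had separate groups, and neither passed.

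ZNF143, an activator of small nuclear RNA and many messenger RNA promoters, stood at 12.8 and 21.8 FPKM after SCNT, against 6.82 and 6.38 FPKM after IVF (log2 difference 1.23, adjusted p = 0.118). Its paralog ZNF76 stood at 5.36 and 15.0 FPKM after SCNT, against 1.74 and 3.42 FPKM after IVF (1.53, 0.113). The paralogs thus had the same direction, with more spread in ZNF76. The SCAN and KRAB repressor ZNF202 stood at 1.20 and 1.57 FPKM after SCNT, against 0.0176 and 0.294 FPKM after IVF (1.05, 0.0777), so it met the level rule through SCNT alone.

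The paralogs ZNF148 and ZNF281, which bind GC-rich promoter elements, were both low. ZNF148 stood at 1.85 and 1.32 FPKM after SCNT, against 0.552 and 0.717 FPKM after IVF, and ZNF281 at 1.32 and 1.02 against 0.795 and 0.492 FPKM. Their log2 differences of 0.65 and 0.41 had adjusted p-values of 0.225 and 0.430, and that of ZNF281 turned to −0.09 after median centring and after quantile normalization. ZNF263 stood at 1.33 and 1.90 FPKM after SCNT, against 0.919 and 0.788 FPKM after IVF (0.49). ZNF318, which in mouse B cells lets transcription run on to the IgD exons, stood at 20.3 and 19.7 FPKM after SCNT, against 10.8 and 18.5 FPKM after IVF (0.47). After median centring both differences were just under 0.

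The other 3 transcription members did not lean to SCNT. ZNF131, a BTB-domain protein, stood at 4.25 and 4.62 FPKM after SCNT, against 10.6 and 4.70 FPKM after IVF (log2 difference −0.58), with only IVF replicate 1 apart. ZNF24 stood at 28.0 and 13.8 FPKM after SCNT, against 18.1 and 21.5 FPKM after IVF (−0.002), so the SCNT libraries lay on either side of the IVF pair. ZNF292 stood at 2.67 and 1.61 against 2.77 and 1.82 FPKM (−0.08).

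Chromatin-associated members numbered 9 at the level rule, of a list of 16 that also holds ZNF423, and none passed. Both SCNT libraries lay above both IVF libraries in 4 (44.4%, background 46.9%) and below in 1 (11.1%, background 17.1%), and 4 overlapped. ZNF592 and ZNF532, which in human cells share a complex with ZMYND8, had the same direction. ZNF592 stood at 3.88 and 6.18 FPKM after SCNT, against 1.06 and 2.57 FPKM after IVF (log2 difference 1.13, adjusted p = 0.150), and ZNF532 at 5.71 and 9.09 against 3.08 and 2.59 FPKM (1.10, 0.145). The third gene of that complex, ZNF687, was under the level rule in all but SCNT replicate 2 (1.22 FPKM). ZNF462, which mouse embryonic stem cells need to stay pluripotent, stood at 5.70 and 8.87 FPKM after SCNT, against 2.56 and 3.69 FPKM after IVF (0.99, 0.185). These 3 members had separate groups.

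The other chromatin members lay closer together. ZNF638, which recruits the HUSH silencing complex to unintegrated DNA in human cells, stood at 32.0 and 22.4 FPKM after SCNT, against 26.1 and 24.7 FPKM after IVF (log2 difference 0.08). ZNF644, a partner of the H3K9 methyltransferases EHMT1 and EHMT2, stood at 11.9 and 8.30 against 11.0 and 11.8 FPKM (−0.18), and ZNF217, found in CoREST complexes, at 4.52 and 2.74 against 3.43 and 4.37 FPKM (−0.11). In each of these 3 the SCNT values lay on both sides of at least 1 IVF value. ZNF518B stood at 2.09 and 1.97 against 1.05 and 1.41 FPKM (0.45) and its paralog ZNF518A at 14.9 and 4.99 against 14.7 and 9.99 FPKM (−0.43). A miss of the threshold does not show that the groups are alike.

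Of 10 genes listed as repressors, mostly KRAB proteins, 5 met the level rule and none passed. Both SCNT libraries lay above both IVF libraries in 1 (20%, background 46.9%) and below in 2 (40%, background 17.1%), and 2 overlapped. ZNF445, which keeps the methylation of imprinted genes in human and mouse, stood at 5.99 and 7.36 FPKM after SCNT, against 3.11 and 3.32 FPKM after IVF (log2 difference 0.86, adjusted p = 0.217). ZNF274, which brings SETDB1 to the ends of other zinc finger genes in human cells, stood at 1.98 and 8.43 FPKM after SCNT, against 2.06 and 1.76 FPKM after IVF (0.87, 0.333). ZNF445 thus had separate groups, while ZNF274 was high in SCNT replicate 2 alone. ZNF461 stood at 23.4 and 14.8 against 14.3 and 17.5 FPKM (0.22, and −0.27 after median centring).

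ZNF382 and ZNF23 stood lower in SCNT. ZNF382 was at 11.0 and 5.90 FPKM after SCNT, against 17.1 and 11.8 FPKM after IVF (log2 difference −0.75, adjusted p = 0.319), and ZNF23 at 9.32 and 6.50 against 14.8 and 14.8 FPKM (−0.85, 0.224). The IVF values of ZNF23 were nearly equal. ZNF10, whose KRAB domain is the source of the repressor domain used in many engineered silencers, was at 0.0946 and 0.113 FPKM in SCNT and listed at 0 in both IVF libraries, and ZNF205, ZNF268 and ZNF777 were at most 0.356 FPKM in any library.

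**Figure D3:**
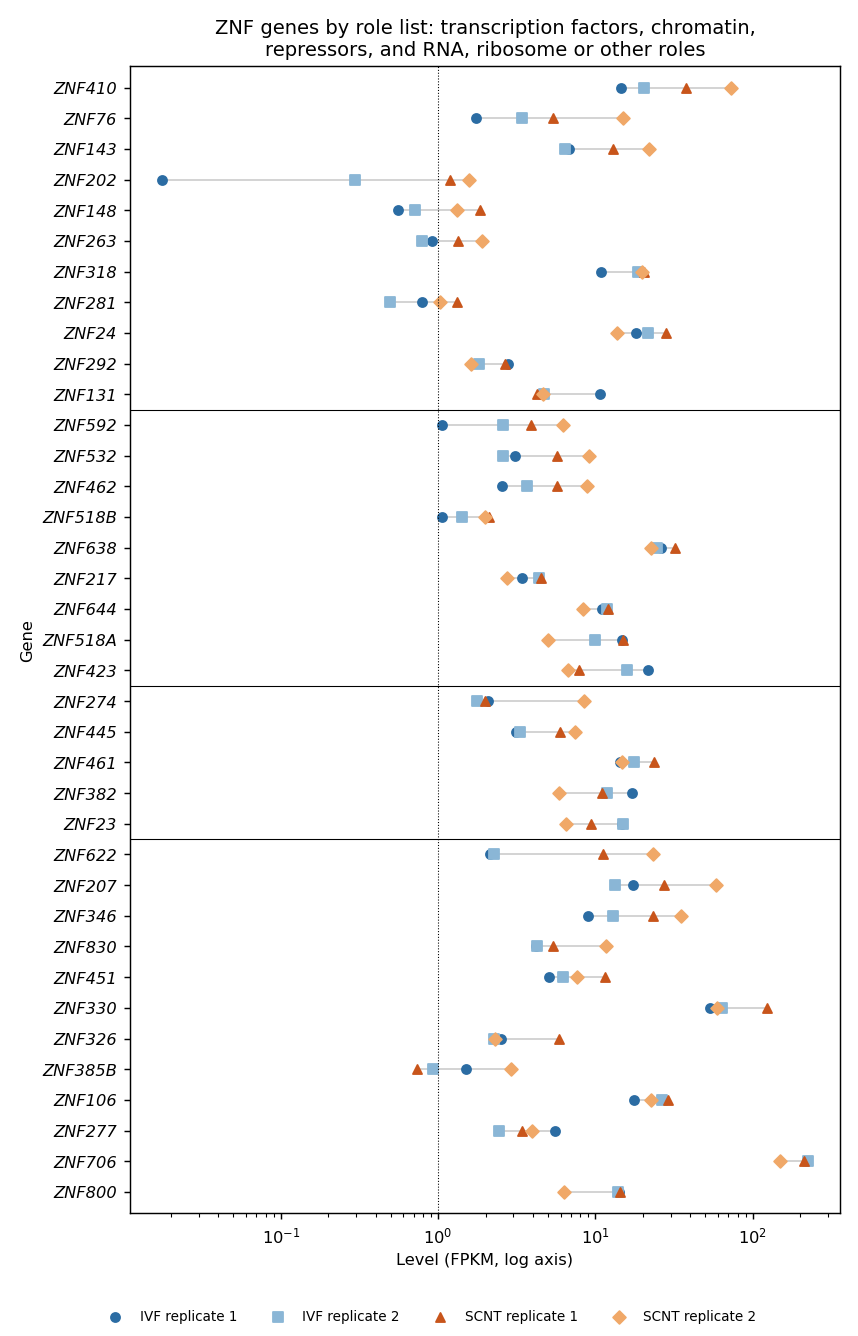
Level in each of the 4 libraries (FPKM, log axis) of the members on 4 role lists, separated by horizontal lines and ordered within each list by the log2 difference; the dotted line marks 1 FPKM. From the top, the lists are transcription factors, chromatin-associated genes, repressors, and genes of RNA, ribosome and other roles; of these, ZNF622 passed the test.

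Members with roles on RNA, ribosomes or the spindle, together with a few others, numbered 13 of a list of 19 (ZNF706 and ZNF638, on this list too, are given elsewhere), and ZNF622 was the 1 that passed (7.69%, background 3.02%). ZNF207 (BuGZ), which loads the checkpoint protein BUB3 onto kinetochores, stood at 27.1 and 58.2 FPKM after SCNT, against 17.4 and 13.4 FPKM after IVF (log2 difference 1.33, adjusted p = 0.110). ZNF346, which binds double-stranded RNA, stood at 23.2 and 34.9 FPKM after SCNT, against 9.03 and 12.8 FPKM after IVF (1.32, 0.0953). ZNF830, needed by mouse embryos around implantation, stood at 5.40 and 11.6 FPKM after SCNT, against 4.20 and 4.23 FPKM after IVF (0.79, 0.310). All 3 had separate groups, and for ZNF830 the gap to SCNT replicate 1 was small. Over the 13, both SCNT libraries lay above both IVF libraries in 5 (38.5%, background 46.9%) and below in 1 (7.69%, background 17.1%). The other 7 overlapped.

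ZNF451 stood at 11.4 and 7.59 FPKM after SCNT, against 5.09 and 6.17 FPKM after IVF (log2 difference 0.65, adjusted p = 0.363). ZNF326, part of a complex that joins transcript elongation to splicing, stood at 5.83 and 2.30 FPKM after SCNT, against 2.49 and 2.26 FPKM after IVF (0.49, 0.519). ZNF330, a nucleolar protein, stood at 123 and 59.3 FPKM after SCNT, against 53.8 and 63.9 FPKM after IVF (0.54, 0.453). In these genes SCNT replicate 1 was the highest library, and ZNF326 and ZNF330 were within or near the IVF values in SCNT replicate 2.

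ZNF106 stood at 28.7 and 22.6 FPKM after SCNT, against 17.5 and 26.6 FPKM after IVF, ZNF277 at 3.40 and 3.95 against 5.53 and 2.44 FPKM, and ZNF385B at 0.730 and 2.89 against 1.51 and 0.930 FPKM. ZNF800 stood at 14.3 and 6.27 against 14.1 and 13.8 FPKM (log2 difference −0.50). The groups overlapped in all 4 genes. ZNF598, the ubiquitin ligase that marks collided ribosomes, was under the level rule, at 1.11 and 0.571 FPKM after SCNT, against 0.164 and 0.268 FPKM after IVF.

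At the top of the family stood 3 genes that together held 39.5% and 35.5% of the FPKM of all members after IVF, and 33.7% and 26.0% after SCNT. ZNF215, a SCAN and KRAB gene that lies in an imprinted region in human, stood at 367 and 233 FPKM after SCNT, against 181 and 220 FPKM after IVF (log2 difference 0.55, adjusted p = 0.385). ZNF706, a small protein that helps mouse embryonic stem cells to leave self-renewal, stood at 210 and 150 FPKM after SCNT, against 222 and 225 FPKM after IVF (−0.33, 0.590). ZNF596 stood at 75.0 and 133 FPKM after SCNT, against 155 and 54.0 FPKM after IVF (0.13, 0.904). ZNF596 varied as much within each group as between them, and the direction of its difference changed with the library left out.

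The other genes among the 10 highest were ZNF394, ZNF330, ZNF829, ZNF184, ZNF410, ZNF32 and ZNF207. ZNF829 stood at 44.3 and 31.7 FPKM after SCNT, against 47.5 and 54.7 FPKM after IVF (log2 difference −0.43), ZNF184 at 45.7 and 32.2 against 38.0 and 44.1 FPKM (−0.09), and ZNF32 at 27.1 and 64.0 against 25.2 and 21.6 FPKM (0.81). Among the 14 members at 20 FPKM or more, 6 had both SCNT values above both IVF values, 2 had them below and 6 overlapped. That is 42.9% and 14.3%, against 36.1% and 25.8% of the 3003 genes of that level, and 0 were called, against 2.997% higher and 0.966% lower. Their median log2 difference was 0.38, against 0.08 over the same genes. For the 80 members under 5 FPKM it was 0.50, against 0.55 over 4104 genes.

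The SCNT libraries differed from each other more than the IVF libraries did. The median absolute log2 difference between replicates was 0.56 in SCNT and 0.29 in IVF over the members, and 0.63 and 0.30 over all genes tested. SCNT replicate 1 lay above both IVF libraries in 102 members (69.4%, background 57.9%) and below both in 21 (14.3%, background 25.3%). SCNT replicate 2 lay above both in 88 (59.9%, background 59.6%) and below both in 39 (26.5%, background 3089 of 10303 genes). These counts include the members that entered through SCNT alone. Among the 98 members at 1 FPKM or more in all 4 libraries, a subset added here after the values were seen, SCNT replicate 1 lay above both IVF libraries in 65 (66.3%, background 55.4%) and below both in 18 (18.4%, background 26.9%), and SCNT replicate 2 in 51 (52.0%, background 55.3%) and 33 (33.7%, background 33.8%).

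Against the mean of the IVF libraries, the median log2 difference of the members was 0.54 in SCNT replicate 1 and 0.47 in SCNT replicate 2. Over all genes tested the order was the opposite, 0.33 and 0.51. A member was most often highest in SCNT replicate 2 (69 members, 46.9%), as were all genes tested (50.4%), then in SCNT replicate 1 (42 members, 28.6%, against 20.2% of all genes), and in either IVF library in 18 each. It was most often lowest in IVF replicate 1 (69 members, 46.9%, against 38.9% of all genes), and in SCNT replicate 1 in 7 (4.76%, against 13.6% of all genes tested).

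**Figure D4:**
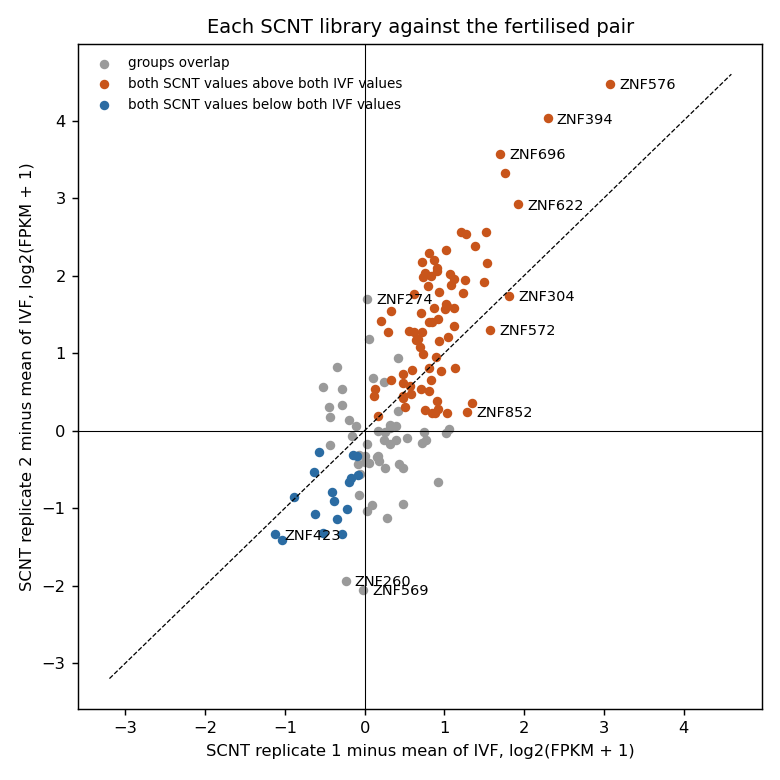
Log2(FPKM + 1) of each member in SCNT replicate 1 (x axis) and SCNT replicate 2 (y axis), each minus the mean of the 2 IVF libraries as deposited; the dashed line marks equal differences. ZNF576, ZNF394, ZNF696 and ZNF622 lie high in both libraries. ZNF304, ZNF572 and ZNF852 lie at or above 1 in replicate 1 and lower in replicate 2, ZNF304 only by little (1.81 and 1.74). ZNF260 and ZNF569 are near 0 in replicate 1 and far below 0 in replicate 2.

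Some members were apart in a single library. ZNF569 stood at 20.4 and 4.21 FPKM after SCNT, against 20.4 and 21.0 FPKM after IVF, and ZNF260 at 3.51 and 0.387 against 5.33 and 3.47 FPKM. In both, SCNT replicate 1 matched the IVF libraries and replicate 2 was low. In IVF, the largest gaps between replicates were those of ZNF394, ZNF596 and ZNF691, given above, ZNF711, at 0.636 and 2.49 FPKM, and ZNF792, at 0.130 and 2.29 FPKM. ZNF792 stood at 0.346 and 1.86 FPKM in SCNT, so its replicates split the same way in both groups. A pair of members singled out after their values were seen lay above IVF in both SCNT libraries. ZNF304, close to equal in SCNT, stood at 12.6 and 12 against 2.39 and 3.45 FPKM (log2 difference 1.78, adjusted p = 0.0585). ZNF3 stood at 11.7 and 16.0 against 3.35 and 3.64 FPKM (1.71, 0.0624).

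ZNF genes often lie side by side, and 118 of the 253 had another ZNF gene with at most 2 other protein-coding genes between them in the RefSeq order, as did 68 of the 147 members. Of these runs, 6 held at least 3 members. They were looked for after the values were known. A run of 9 ZNF genes from ZNF565 to ZNF793 held 8 members, and they did not share a direction: ZNF568 and ZNF793 had both SCNT values above both IVF values, ZNF382 and ZNF829 had them below, and ZNF565, ZNF567, ZNF461 and ZNF260 overlapped. ZNF568, whose mouse relative silences a placental transcript of Igf2, stood at 15.3 and 13.4 FPKM after SCNT, against 9.73 and 6.81 FPKM after IVF (log2 difference 0.74, adjusted p = 0.280). Levels in the run went from at most 0.674 FPKM in ZNF146, which was no member, to 54.7 FPKM in ZNF829.

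A second run of 9 ZNF genes, from ZNF862 to ZNF786, held 5 members, all with a positive difference. ZNF467 (1.89), ZNF212 (1.60), ZNF783 (1.33) and ZNF398 (0.60) had separate groups, and ZNF786 (0.68) overlapped. Of these, ZNF467 and ZNF212 met the level rule through SCNT alone and so had to be higher there. Of all genes tested, 6781 of 10303 had a positive difference and 46.9% had separate groups with SCNT the higher. The run holds too few genes to set its counts against these shares. ZNF783 stood at 6.52 and 10.5 FPKM after SCNT, against 1.99 and 3.58 FPKM after IVF, and ZNF212 at 2.84 and 5.15 against 0.397 and 0.843 FPKM. The other 4 genes of the run, ZNF862, ZNF746, ZNF777 and ZNF282, were at most 0.493 FPKM in any library. None of these members passed, with adjusted p-values from 0.0629 to 0.376.

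In the run of ZNF445, ZNF852, ZNF502 and ZNF501 all 4 were members, and ZNF445 and ZNF852 had separate groups. ZNF852 stood at 19.7 and 9.04 FPKM after SCNT, against 6.35 and 8.82 FPKM after IVF. In the run of ZNF667, ZNF583 and ZNF582, ZNF583 stood at 12.2 and 15.1 FPKM after SCNT, against 18.9 and 18.3 FPKM after IVF, and the other 2 overlapped. Runs around ZNF140 (3 members of 7 genes) and ZNF233 (4 of 5) each had 2 members with both SCNT libraries above both IVF libraries and none below. These runs hold too few genes to set their counts against the background of 46.9% and 17.1%. In the run around ZNF233, ZNF112 met the level rule through SCNT alone and so had to be higher there. Related ZNF genes share sequence, and how reads that fit several of them were counted is not given, so values of close relatives may share reads.

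**Figure D5:**
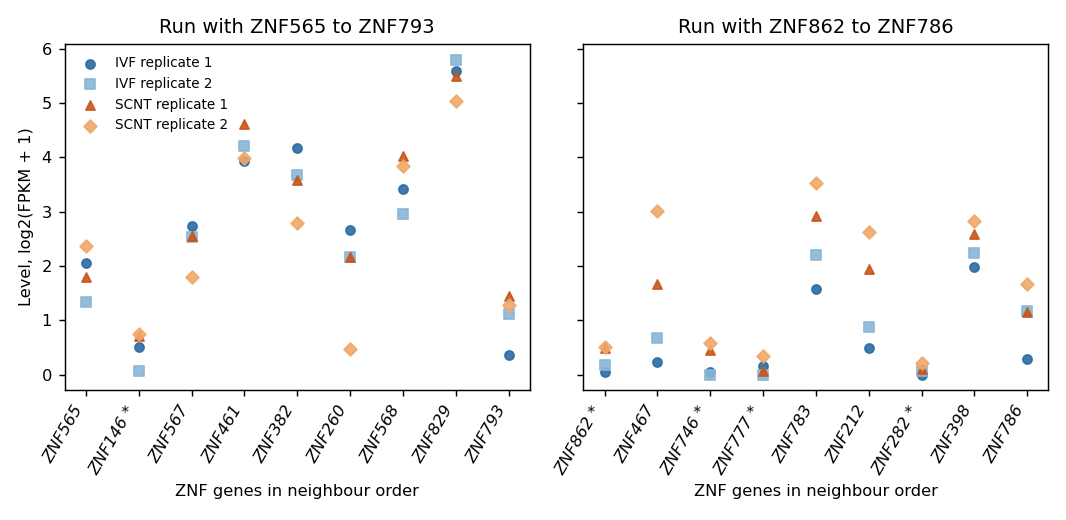
Level of neighbouring ZNF genes in each of the 4 libraries, as log2(FPKM + 1), for the run from ZNF565 to ZNF793 (left) and from ZNF862 to ZNF786 (right), in neighbour order and not to scale of distance; an asterisk marks genes under the level rule. On the left the SCNT values lie above, below or among the IVF values from gene to gene, and on the right those of the 5 members lie above or among them.

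The genes that KRAB zinc finger proteins work with were followed in a list of 41, of which 37 were tested; 2 rose, 0 fell and 35 did not pass (5.41% called higher, background 3.02%). The median log2 difference of the list was 0.55, against 0.39 over all genes. TRIM28 stood at 9.79 and 14.5 FPKM after SCNT, against 1.04 and 1.02 FPKM after IVF (log2 difference 2.67 ± 0.45 SE, adjusted p = 0.0295), and ZFP57, a KRAB protein that guards imprints, at 3.59 and 4.72 against 0.438 and 0.0107 FPKM (2.09 ± 0.39 SE, 0.0383). Both genes had separate groups, but ZFP57 met the level rule through SCNT alone and so had to be higher there. The list held 0 calls without SCNT replicate 2 or without IVF replicate 2, and 1 without IVF replicate 1.

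SETDB1, the H3K9 methyltransferase that TRIM28 brings to DNA, stood at 29.0 and 51.5 FPKM after SCNT, against 6.82 and 13.2 FPKM after IVF (log2 difference 1.91, adjusted p = 0.0624). ATF7IP, its cofactor, stood at 10.9 and 7.36 against 8.45 and 5.82 FPKM (0.31, 0.678). HUSH complex genes did not share that direction: FAM208A, which encodes the HUSH subunit TASOR, stood at 64.2 and 26.4 FPKM after SCNT, against 131 and 117 FPKM after IVF (−1.57, 0.0811), and MPHOSPH8 at 18.2 and 13.2 against 17.2 and 18.9 FPKM (−0.20). Of the 37 genes, 20 had both SCNT values above both IVF values (54.1%, background 46.9%), 6 had them below (16.2%, background 17.1%) and 11 overlapped. Some of the 20, ZFP57 among them, met the level rule through SCNT alone and so had to be higher there. So did 9.34% of all genes at the level rule. Both the 54.1% and its background are thus raised by the rule.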

How the data were processed

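The authors deposited FPKM values per gene and library; per the file headers there is 1 column for each of the 4 8-cell libraries, not pooled. Tools listed, without role or order, in the submitters' processing notes are HISAT2 2.2.1, HTSeq and fastp. Genome build, annotation and treatment of shared reads were not given in the sources used here, nor whether strand was used, so overlapping genes on opposite strands cannot be told apart. The members and gene lists were chosen with earlier results of these data known. Annotated lncRNAs and repeated names stayed in the fit.

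From these values, the 10303 genes that reached 1 FPKM in 2 or more libraries were tested on log2(FPKM + 1) with limma 3.58.1 in R 4.3.3 (lmFit, eBayes with a variance trend; two-sided), SCNT against IVF, unpaired, with Benjamini-Hochberg adjustment over all 10303 and a threshold of 0.05. The procedure was checked on simulated data. Totals were recovered from FPKM steps in genes shorter than 1500 bases in RefSeq: 380 of 577 gave the same total. Alternatives changed pseudocount, filter, scaling, variance trend, pairing and libraries. Genes were named by rule: called members, the 8 most positive and negative differences without overlap, the 10 highest levels, role lists, those nearest to 1 FPKM, and the 5 largest replicate gaps in each group. Protein features were not analysed here. The values of 1 gene of the partner list are not reported here.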

Additional observations from a re-analysis of the deposited data

How the results depend on the processing

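With 2 libraries a group, 1 library can decide a call. As reported, 2 members were called higher and 0 lower, 311 and 87 of all genes, and 2 and 0 of the KRAB partner genes. Members called higher numbered 4 with a pseudocount of 0.1 FPKM and 5 with 0.5 FPKM. They numbered 0 with no filter on level, 1 with a filter of 5 FPKM and 1 after median centring. Rescaling to equal totals gave 20 and quantile normalization gave 1. After median centring 1 member, ZNF25, was called lower. It had met the level rule through IVF alone and so had to be lower in SCNT. All genes called higher numbered 471 (pseudocount 0.5), 0 (no filter), 92 (5 FPKM), 158 (centring), 1133 (rescaling) and 121 (quantile); lower, 0 (no filter), 41 (5 FPKM), 238 (centring), 194 (rescaling) and 150 (quantile). Partner genes called higher numbered 4 (pseudocount 0.5), 0 (no filter), 1 (5 FPKM), 8 (rescaling) and 1 (quantile). Leaving out 1 library at a time gave 0 to 47 members higher (47 without SCNT replicate 1, 0 without SCNT replicate 2) and 0 to 5 lower, 13 to 2856 and 33 to 978 of all genes, and 0 to 12 and 0 to 7 partner genes. There the lone library is assumed to vary like the other group.

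The members' median difference of 0.54 became 0.69 (pseudocount 0.1), 0.60 (0.5), 0.043 (centring), 0.62 (rescaling) and 0.059 (quantile), and 0.47 to 0.66 with 1 library left out. By SCNT replicate 2 alone, an alternative chosen after seeing the data, 39 members lay below both IVF libraries instead of 17. Replicate numbers are shared between the groups, but the labels do not say that they pair them, and replicate differences correlated by 0.117 over 10303 genes. With the replicate number as a block, 30 members were called higher, 1636 and 288 of all genes higher and lower, and 10 and 1 partner genes.

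Of the 147 members, 29 changed sign after median centring and 28 after quantile normalization. Among the members named by rule, median centring reversed ZNF106 (−0.26), ZNF596 (−0.37), ZNF461 (−0.27), ZNF638 (−0.42), ZNF385B (−0.26), ZNF792 (−0.47), ZNF263 (−0.0022), ZNF326 (−0.00062), ZNF318 (−0.024), ZNF518B (−0.047) and ZNF281 (−0.088). Among the same, quantile normalization reversed ZNF461 (−0.14), ZNF385B (−0.33), ZNF638 (−0.23), ZNF326 (−0.035), ZNF281 (−0.094), ZNF263 (−0.016), ZNF792 (−0.43), ZNF106 (−0.10) and ZNF518B (−0.071). Leaving out 1 library reversed, among the same, ZNF106 (−0.059 to 0.52), ZNF180 (−0.56 to 0.33), ZNF184 (−0.34 to 0.16), ZNF217 (−0.39 to 0.18), ZNF24 (−0.49 to 0.48), ZNF277 (−0.48 to 0.44), ZNF292 (−0.32 to 0.17), ZNF326 (−0.032 to 1.02), ZNF385B (−0.35 to 0.82), ZNF461 (−0.089 to 0.54), ZNF518A (−1.13 to 0.28), ZNF596 (−0.63 to 0.88), ZNF638 (−0.17 to 0.32), ZNF644 (−0.42 to 0.061), ZNF711 (−0.86 to 0.23), ZNF792 (−0.75 to 0.80) and ZNF800 (−1.04 to 0.035), given with the range over the 4 omissions. The cause was not tested for any of these. The planned count of protein features, with its alternatives, was not run, since no protein sequences were used here.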

Other observations

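Other C2H2 families were read from the same fit, with the same background of 3.02% of genes called higher and 0.844% lower. Of 24 ZBTB genes at the level rule, which join a BTB domain to zinc fingers, 0 passed; 13 had both SCNT libraries above both IVF libraries (54.2%, background 46.9%) and 4 below (16.7%, background 17.1%), and the median log2 difference was 0.28. The nearest to the threshold was ZBTB17 (MIZ1, the partner of MYC), at 1.76 and 2.24 FPKM after SCNT, against 0.0978 and 0.152 FPKM after IVF (adjusted p = 0.0502). ZBTB17, ZBTB46 and ZBTB49 met the level rule through SCNT alone and so had to be higher there. ZBTB33 (Kaiso), which binds methylated DNA, was the most abundant, at 92.7 and 55.0 FPKM after SCNT, against 102 and 107 FPKM after IVF (−0.54). Of 8 ZSCAN and 4 ZKSCAN genes 0 passed. Both SCNT libraries lay above both IVF libraries in 6 ZSCAN genes (75%) and 2 ZKSCAN genes (50%), against a background of 46.9%. They lay below in 1 ZSCAN gene (12.5%) and 0 ZKSCAN genes, against 17.1%. ZSCAN20, ZSCAN23 and ZSCAN25 met the level rule through SCNT alone and so had to be higher there. ZSCAN21 stood at 16.7 and 29.8 FPKM after SCNT, against 3.72 and 9.33 FPKM after IVF (1.74, adjusted p = 0.0808).

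Of 11 ZFP genes, 2 rose, ZFP57 and ZFP36. Both met the level rule through SCNT alone and so had to be higher there. ZFP36 is not a C2H2 gene: it encodes tristetraprolin, which binds AU-rich messenger RNAs through CCCH fingers and speeds their decay. It stood at 12.2 and 15.9 FPKM after SCNT, against 0.700 and 0.616 FPKM after IVF (log2 difference 3.17 ± 0.44 SE, adjusted p = 0.0223). Its paralog ZFP36L1 stood at 44.9 and 14.5 FPKM after SCNT, against 65.1 and 62.1 FPKM after IVF (−1.28, 0.152). ZFP42 (REX1), a marker of pluripotent cells in mouse, stood at 16.0 and 5.79 FPKM in SCNT and at 11.2 FPKM in IVF replicate 1, and was listed at 0 in IVF replicate 2. These genes were chosen after their values were seen.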
